A study of Ovis aries with 7 samples.

Results

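Transcripts of the pluripotency factors POU5F1, SOX2, NANOG, SALL4, PRDM14 and TCL1A were measured in 8-cell embryos of sheep (Ovis aries). These 6 genes were chosen by name, and all 6 have a row in the table of 31304 genes, of which 16526 carry a gene symbol. The study set embryos from in vitro fertilization (IVF, 3 libraries) beside embryos from nuclear transfer (SCNT, somatic cell nuclear transfer; 4 libraries), where the nucleus of a body cell replaces that of the egg. Only the 3 IVF libraries are described, because no column is named as an SCNT sample and 4 columns match no label. The SCNT samples were not analysed here. Both kinds of embryo were lysed at the same stage, and polyA RNA was amplified and sequenced by Smart-seq2. The labels give neither breed nor the number of embryos in a library, and nothing ties a library to a separate trial, so part of the spread may be technical. In whole embryos fewer cells expressing a gene cannot be told apart from less RNA per cell. Values are TPM, in which the reads of a gene are scaled to its length and to the whole library. They keep no read depth, so no counting interval is given.

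POU5F1 (also called OCT4) and SOX2 are DNA-binding factors that act as a pair on shared regulatory sites, and NANOG is a homeobox factor that acts with them to keep embryonic cells undifferentiated. SALL4 is a zinc finger factor that binds POU5F1 and recruits the NuRD corepressor, and PRDM14 is a zinc finger repressor of differentiation genes that works through the corepressor CBFA2T2. TCL1A is a small cytoplasmic and nuclear protein that binds AKT kinases and raises their activity, and is known from oocytes and B lymphocytes. In mammals several of these factors are stored in the egg and made again after the embryo activates its genome.

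The 6 genes lay at 2 levels. PRDM14, SALL4 and TCL1A supplied 85.6, 87.6 and 86.0% of the summed TPM of the 6 genes in replicates 1, 2 and 3. POU5F1, NANOG and SOX2 supplied the rest. The summed level of the 6 was 273, 425 and 350.1 TPM in the same order, whereas their median was 44.2, 38.5 and 42.6 TPM, against 1.46, 1.74 and 1.32 TPM for the median gene symbol.

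In the core trio, POU5F1 was at 19.1, 24.4 and 18.1 TPM in replicates 1, 2 and 3, a mean of 20.5 ± 3.38 (SD, n = 3). Replicate 2 was the highest, and the other two lay close together. SOX2 was at 15.2, 11.2 and 12.3 TPM, a mean of 12.9 ± 2.09, and was highest in replicate 1. In the gene table of the ARS-UI_Ramb_v3.0 assembly SOX2 lies wholly inside the long noncoding RNA gene LOC105603076, which was at 0.0708, 0.0105 and 0 TPM; the other 5 genes overlap no annotated gene there. NANOG was at 5.20, 17.1 and 18.4 TPM, a mean of 13.6 ± 7.29. Its value in replicate 1 stood apart from replicates 2 and 3, whose mean was 17.8 TPM.

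Among the partners, PRDM14 was at 77.9, 154 and 130.0 TPM in replicates 1, 2 and 3, a mean of 121 ± 39.0. SALL4 was at 69.3, 165 and 104.5 TPM, a mean of 113 ± 48.6. Both zinc finger genes were lowest in replicate 1 and highest in replicate 2. TCL1A showed the opposite arrangement, at 86.6, 52.5 and 66.7 TPM with a mean of 68.6 ± 17.1. The lowest value of any of these 3 genes, 52.5 TPM, was above the highest value of POU5F1, NANOG or SOX2, 24.4 TPM.

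**Figure D1:**
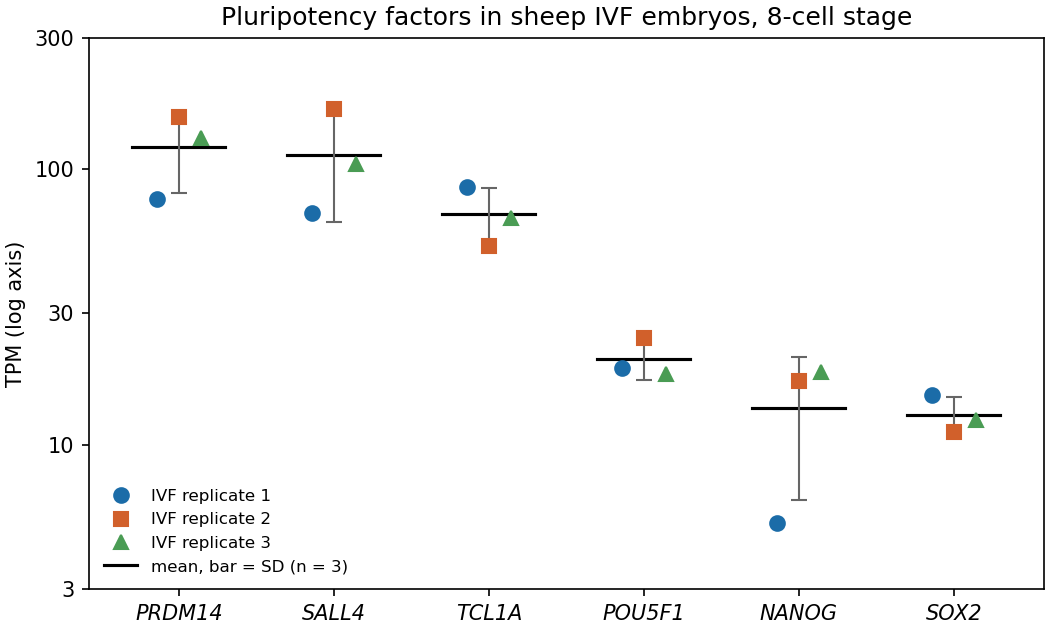
TPM (log axis) of the 6 genes in each IVF library; points are libraries, black lines are means and bars are SD (n = 3). PRDM14, SALL4 and TCL1A lie between 52.5 and 165 TPM and the core trio between 5.20 and 24.4, with NANOG in replicate 1 as the lowest point.

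Placed in the whole transcriptome, PRDM14 ranked 824th of 16526 gene symbols by mean TPM, with 95.0% of symbols below it, and SALL4 ranked 868th. TCL1A ranked 1310th, POU5F1 2881st, NANOG 3653rd and SOX2 3757th. Thus even SOX2 exceeded 77.3% of symbols. The rank of SALL4 was 1292, 650 and 895 in replicates 1, 2 and 3, and that of NANOG was 5561, 3366 and 2866. POU5F1 held nearly the same place throughout, at 2982, 2726 and 2888.

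**Figure D2:**
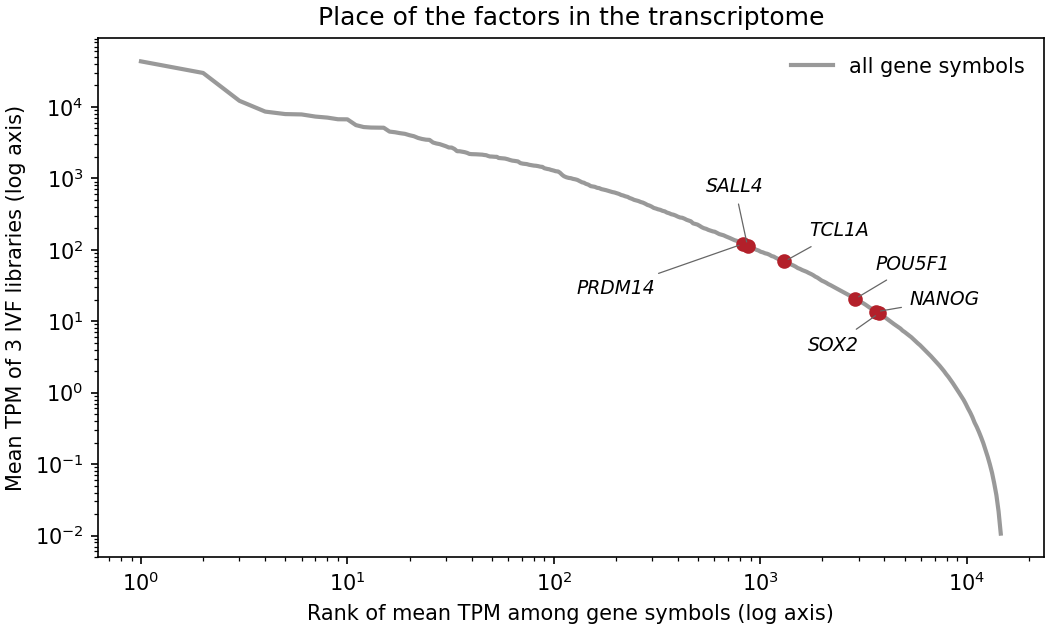
Mean TPM of 3 IVF libraries against rank for all gene symbols (grey line, both axes log), with the 6 genes as red points. PRDM14 and SALL4 share a place near rank 824 to 868 and NANOG and SOX2 near rank 3653 to 3757, with TCL1A and POU5F1 between.

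The order of the levels was compared within each library on the log2(TPM + 1) scale. Of the 15 pairs, 10 stood in the same order in all 3 libraries and 5 did not. An exact two-sided sign-flip permutation test on 3 libraries cannot give a p below 0.25, so no pair was tested. The step between the 2 levels was TCL1A over POU5F1, a difference of 1.68 ± 0.54, positive in 3 of 3 libraries. All 9 pairs across that step kept their order, which follows from the lack of overlap given above, and they are among the 10. Within the upper level no order held: PRDM14 over SALL4 was 0.13 ± 0.21, SALL4 over TCL1A 0.65 ± 0.98 and PRDM14 over TCL1A 0.78 ± 0.86 (-0.15, 1.54 and 0.95 in replicates 1, 2 and 3), each positive in 2 of 3 libraries and not larger than its spread. These means turned on single libraries: SALL4 over TCL1A was 1.14 without replicate 1 and 0.16 without replicate 2, and PRDM14 over SALL4 was 0.24 without replicate 2 and 0.03 without replicate 3. In replicate 1 TCL1A was the highest of the 6.

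Within the core trio only POU5F1 over SOX2 held its order, at 0.31, 1.06 and 0.52 in replicates 1, 2 and 3 (0.63 ± 0.39). POU5F1 over NANOG was 1.69, 0.49 and -0.02, so these neighbours did not differ beyond their spread (0.72 ± 0.88, or 0.23 without replicate 1 and 1.09 without replicate 3). NANOG over SOX2 was -1.39, 0.58 and 0.54, a mean of -0.09 ± 1.12 that was 0.56 without replicate 1 and -0.42 and -0.41 without replicates 2 and 3. NANOG was thus the lowest of the 6 in replicate 1 while SOX2 was the lowest in replicates 2 and 3. The steadiest difference of the 15 was TCL1A over SOX2, at 2.43, 2.14 and 2.34 (2.31 ± 0.15).

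The genes differed in how evenly the libraries expressed them. The SD of log2(TPM + 1) was 0.92 for NANOG, larger than for 94.4% of the 3188 rows within 2-fold of its mean TPM. SALL4 (0.62) exceeded 83.2% of 1203 such rows and PRDM14 (0.51) 74.0% of 1165. TCL1A, at 0.36, lay in the middle of its 1578 rows. POU5F1 (0.22) exceeded only 17.3% of 2776 rows and SOX2 (0.21) 15.8% of 3244, the 2 smallest values of the 6. These shares describe 3 libraries, use TPM as deposited and are no test. Under median-of-ratios scaling TCL1A was at 90.9, 44.2 and 73.3 TPM in replicates 1, 2 and 3. SALL4 was then at 72.7, 139 and 115 TPM. The relative spread of TCL1A was there the larger, so the order of the spreads depends on the scaling. Under the same scaling SOX2 was at 15.97, 9.39 and 13.56 TPM in replicates 1, 2 and 3. POU5F1 stayed between 19.93 and 20.52 TPM. SOX2 was thus less even than POU5F1 there, and its small spread also depends on the scaling.

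Each library was next set against the mean of the other 2 on the log2(TPM + 1) scale, with a difference of at least 2-fold counted, beside the 6978 rows averaging 5 TPM or more. In replicate 1, NANOG was the only gene of the 6 past that size, at -1.60, where 7.71% of all rows were at least 2-fold lower and 5.65% at least 2-fold higher. SALL4 at -0.92 and PRDM14 at -0.85 lay inside the bound in that library, while TCL1A was at 0.54 and SOX2 at 0.35. In replicate 2 none of the 6 passed, against 12.8% of rows higher and 3.85% lower. SALL4 was nearest there at 0.95, and TCL1A was at -0.52. None passed in replicate 3, against 0.817% of rows higher and 2.62% lower, and NANOG was nearest at 0.88, above 98.7% of rows. The count of 1 among 18 values is near these background shares.

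The median of these differences over the rows was -0.07, 0.19 and -0.12 in replicates 1, 2 and 3. Relative to it, NANOG was at -1.53 in replicate 1 and at 0.997 in replicate 3, SALL4 at 0.76 in replicate 2, and POU5F1 at -0.07, 0.18 and -0.12 in the 3 libraries. Centring each library first on the median log2(TPM + 1) of its rows is another measure. By it NANOG passed 2-fold in replicate 3 as well, at 1.08, where 1.72% of rows were at least 2-fold higher. Without replicate 1 none of the 6 genes differed 2-fold between the 2 libraries left, and without replicate 3 SALL4 joined NANOG, at -1.24 in replicate 1 against replicate 2. The share of all rows past 2-fold between 2 libraries is not reported here, so these counts cannot be set against a background.

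**Figure D3:**
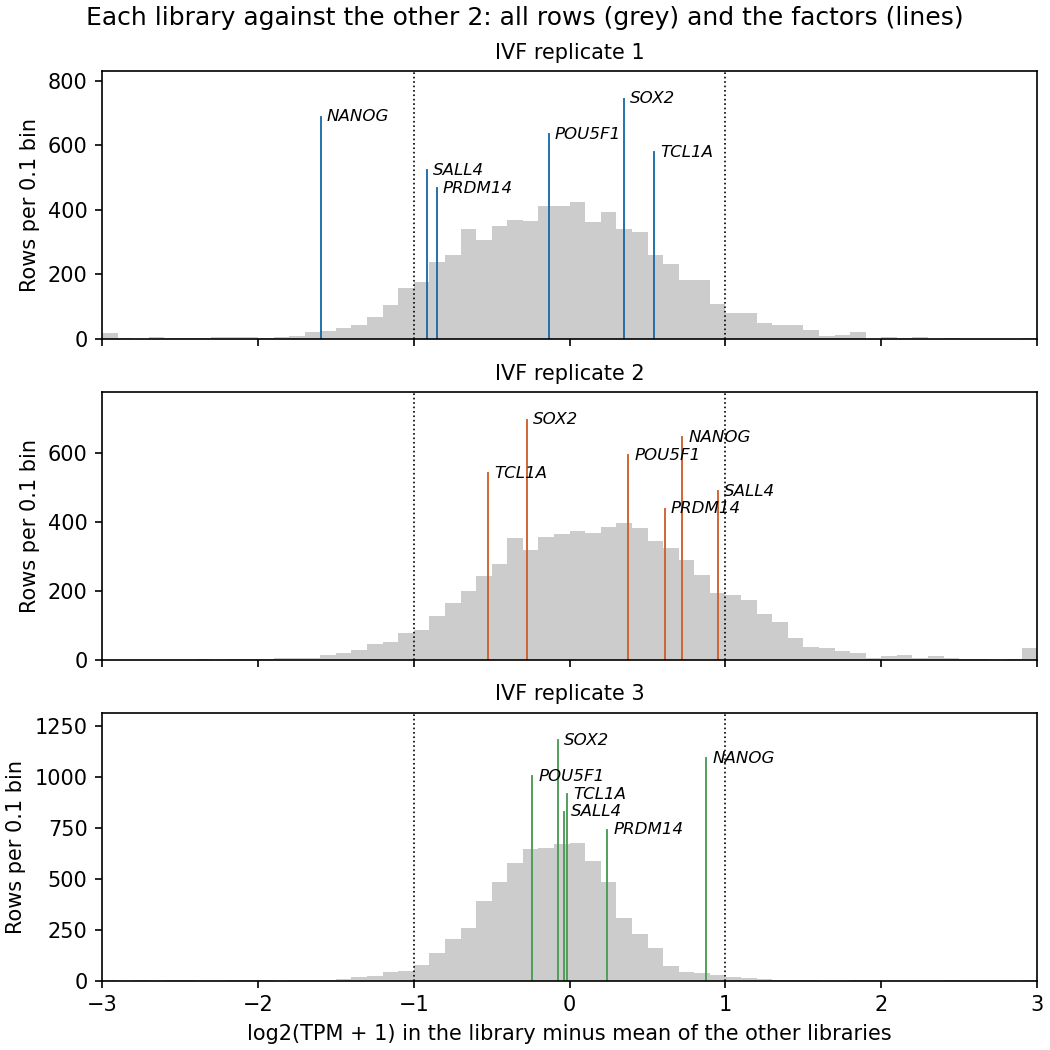
Difference of each IVF library from the mean of the other libraries, log2(TPM + 1): grey bars count rows averaging 5 TPM or more per bin of 0.1 (rows beyond 3 in size, 19, 30 and 7 in replicates 1, 2 and 3, are in the outer bins), and coloured lines, whose height has no meaning, mark the 6 genes. NANOG in replicate 1, at -1.60, is the only line outside the dotted 2-fold bounds.

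Replicate 1 held the lowest value of NANOG, SALL4 and PRDM14, and of 40.2% of the 6978 rows. Replicate 2 held the highest value of SALL4, PRDM14 and POU5F1, against 49.3% of rows, and the lowest of SOX2 and TCL1A, against 28.8%. Under median-of-ratios scaling PRDM14 was highest in replicate 3 instead, and under quantile normalization POU5F1 was lowest in replicate 1 instead of 3. SALL4, NANOG, SOX2 and TCL1A had the same highest and lowest library under these scalings and with mitochondrially encoded and ribosomal protein genes removed.

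Among paralogs, the 5 genes with a family on the lists were each the most abundant of it by mean TPM. SALL4 made up 92.2 ± 4.23% of the summed TPM of 4 SALL genes and exceeded SALL3 by 3.65 ± 0.84 on the log2(TPM + 1) scale. TCL1A made up 89.5 ± 1.78% of 3 TCL1 genes, with TCL1B at 7.97, 6.90 and 8.58 TPM. PRDM14 made up 79.7 ± 4.59% of 13 PRDM genes. The next of these, the methyltransferase PRDM2, was at 20.3, 24.3 and 19.7 TPM, a level like that of POU5F1, and PRDM12 and PRDM16 were listed at 0 in all libraries.

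POU5F1 made up 69.0 ± 2.83% of 14 POU genes. The next, POU3F1, was at 2.88, 4.41 and 3.08 TPM, and POU5F1 exceeded it by 2.28 ± 0.08, with a small spread between libraries. SOX2 was the exception to a clear lead. It made up 33.8 ± 4.57% of 19 SOX genes, and SOX15, a SOX factor known from embryonic stem cells, was at 12.4, 8.70 and 14.99 TPM. SOX2 over SOX15 was 0.27, 0.33 and -0.26, so the pair did not hold its order. SOX4 followed at 5.74, 9.70 and 4.26 TPM, and SOX7 was listed at 0 in all libraries.

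**Figure D4:**
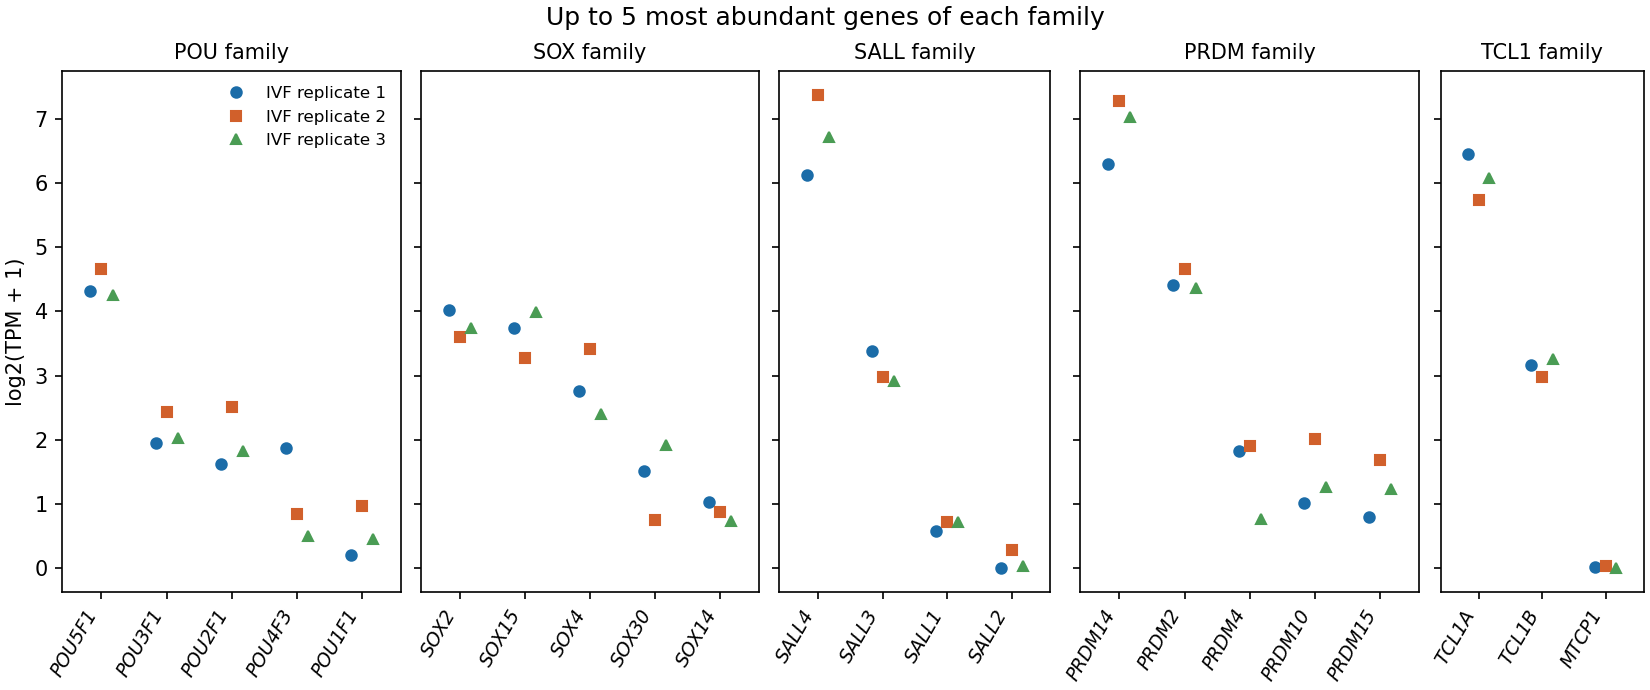
log2(TPM + 1) of up to 5 most abundant genes in the POU, SOX, SALL, PRDM and TCL1 families; points are IVF libraries. SALL4, PRDM14, TCL1A and POU5F1 stand above the rest of their families in each library, whereas SOX2 and SOX15 overlap.

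Other genes of the pluripotency network were measured for 33 of the 37 listed. Of these 26 had at least 1 TPM in all 3 libraries (78.8%, against 49.0% of all gene symbols), and the median member stood at 7.54, 9.36 and 6.96 TPM, below the median of the 6 genes. The most abundant was TFAP2C, an AP-2 factor of trophectoderm and germ cells, at 164, 692 and 299.8 TPM. KLF4 was at 88.3, 128 and 145 TPM and KLF17 at 98.9, 117 and 105.0, both in the range of PRDM14 and SALL4. OTX2, a homeobox factor of the later epiblast, was at 46.0, 138 and 69.0 TPM. Of the 20 network genes averaging 5 TPM or more, 16 were highest in replicate 2, against 49.3% of all rows, and 13 lowest in replicate 1, against 40.2%. Under median-of-ratios scaling these counts were 14 and 14, where 31.1% of rows were highest in replicate 2 and 35.5% lowest in replicate 1. SALL4, given above, had this arrangement under both, and SOX2 and TCL1A under neither.

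For the proteins that SALL4, PRDM14 and TCL1A are known to bind, RNA was found at uneven levels. Of 13 NuRD subunits, 11 reached 1 TPM in every library (84.6%, against 49.0% of all gene symbols). The histone-binding subunits RBBP7 and RBBP4 were at 771 ± 69.4 and 298 ± 118 TPM and the deacetylases HDAC2 and HDAC1 at 269.9 ± 40.4 and 32.6 ± 14.9. The 2 below the threshold, MTA1 (3.24, 0.187 and 0.891 TPM) and CHD3 (0.00814, 0.296 and 0.0183 TPM), are named after their values were seen. CBFA2T2, the partner of PRDM14, was at 33.7, 31.9 and 29.1 TPM, with an SD of 2.33 TPM, and lay below PRDM14 in every library.

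Among 12 cofactors, CBFA2T2 included, 11 reached 1 TPM in all libraries (91.7%, against 49.0% of all gene symbols). The other, NACC1, was at 2.22, 0.613 and 1.91 TPM. The corepressor TRIM28 was at 32.2, 47.1 and 44.6 TPM, and PARP1, an enzyme that binds SOX2, was at 40.0, 35.9 and 38.5. OGT, a glycosyltransferase that modifies POU5F1 and SOX2, was at 19.9, 69.4 and 24.6 TPM, highest in replicate 2. In the pathway of TCL1A, 8 of 9 genes reached 1 TPM in all libraries (88.9%, against the same 49.0%). The catalytic kinase subunit PIK3CB was at 69.3, 82.5 and 53.4 TPM, AKT1 at 17.8, 7.18 and 9.89, the mTOR complex subunit RICTOR at 10.7, 13.1 and 9.20 and the kinase PDPK1, which phosphorylates AKT, at 9.38, 7.96 and 6.49. AKT1, like TCL1A, was highest in replicate 1 and lowest in replicate 2. AKT2, the gene of the 9 that did not reach 1 TPM, was at 0.257, 0.0782 and 0.218 TPM; it and NACC1 are named after their values were seen.

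**Figure D5:**
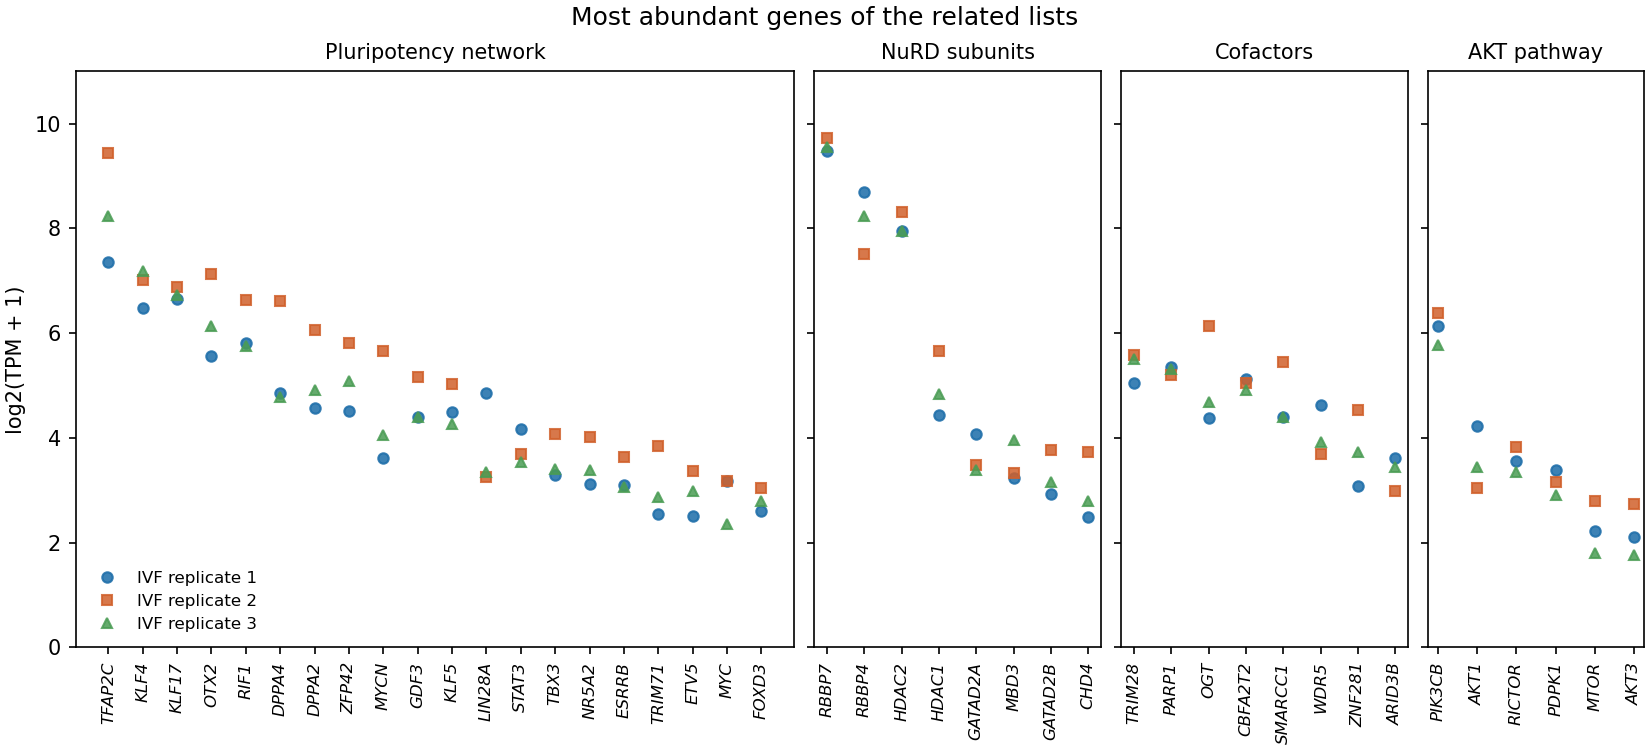
log2(TPM + 1) of the most abundant genes of the network list (20), NuRD subunits (8), cofactors (8) and the AKT pathway (6); points are IVF libraries. In the network panel most genes have replicate 2 on top, 16 of the 20 in TPM.

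Genes with the pattern most like each of the 6 were sought among all gene symbols by the summed absolute difference in log2(TPM + 1) over 3 libraries. For POU5F1 the nearest were ACBD6, ZCCHC12 and SYNJ1, at distances of 0.06, 0.09 and 0.12, and 129 symbols lay within 0.6. SOX2 had PPCS, REV1 and TSEN34, with 111 symbols within 0.6. TCL1A had FMC1, ZC2HC1A and THAP11, with 63. For SALL4 the nearest were SGK1 (69.5, 165 and 99.7 TPM), SLC31A1 and TMCO1, with 25 symbols within 0.6. PRDM14 had PHB1, SMNDC1 and STOM, with 20. NANOG had few genes near it: TRMO, at 6.92, 18.5 and 18.9 TPM, lay at 0.49 and was the only symbol within 0.6, followed by NIF3L1 and VMO1. With 3 libraries such nearness describes level as much as pattern.

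Most of the listed markers of other cells did not reach 1 TPM in all libraries. Those that did were 11.1% of B lymphocyte, 37.5% of neural, 16.7% of fibroblast and 27.3% of cumulus markers, against 49.0% of gene symbols. B lymphocyte markers, relevant to TCL1A, summed to 7.96 to 10.5 TPM, with 1 of 9 at 1 TPM or more in all libraries, EBF1 (7.63 ± 1.59), and with MS4A1, CD79B and CD22 listed at 0 throughout. Neural markers, relevant to SOX2, summed to 39.9 to 54.7 TPM over 8 genes. Of these, 3 reached 1 TPM throughout: ELAVL3 (30.9 ± 3.37), MAP2 and PAX6. Fibroblast markers summed to 18.1, 27.0 and 25.1 TPM in replicates 1, 2 and 3 with 3 of 18 at that level, led by ACTA2, and TWIST2 and POSTN listed at 0. Cumulus markers summed to 81.4, 56.3 and 47.4 TPM with 3 of 11, led by GATM at 68.5, 35.0 and 35.2, and FOXL2 and PTX3 listed at 0. Replicate 1, where SOX2 and TCL1A were highest and NANOG lowest, held the highest cumulus sum. The other 10 markers, a sum not planned beforehand, came to 12.9, 21.2 and 12.2 TPM, of which HAS2 was 9.86, 13.1 and 7.09. Whether cumulus RNA bears on the values of replicate 1 was not tested.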

How the data were processed

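The authors deposited a table of TPM values, 1 column per library, per the file headers. Per the labels' protocols, cDNA from polyA RNA went through 20 PCR cycles and was read from both ends over 150 bases (Smart-seq2). Per the submitters' processing notes, fastp 0.23.4 and HISAT2 2.2.1 were used. The sources used here give no genome build or annotation for sheep and no counting tool. Each column used sums to 1000000 TPM, so abundant genes lower the rest. Of 7 columns, 3 match IVF labels by name; 4 columns of per-sample values match no label and were not used.

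Logs are log2(TPM + 1), a scale on which changes of low genes look smaller. Row names were used as deposited. The ARS-UI_Ramb_v3.0 gene table (28875 of 31304 rows and all 6 genes matched) showed overlaps only; no coordinates or sequences are given. The 6 genes, the 14 lists (the 6 genes themselves count as 1) and the tests were chosen with earlier results of these data known. Genes named beside the 6 are the 4 most abundant of each list at 1 TPM or more, up to 5 per family with a mean of at least 1 TPM, genes listed at 0 and the 3 nearest symbols per gene; MTA1, CHD3, NACC1 and AKT2 were added after their values were seen. Some listed genes are not reported here. Steps were tested on simulated data. Alternatives were pseudocounts, scalings, filters, thresholds and leaving out each library. Python 3.11.15, numpy 2.4.6, pandas 2.3.3 and matplotlib 3.10.9 were used.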

Additional observations from a re-analysis of the deposited data

How the results depend on the processing

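No paired analysis was possible because only IVF columns could be matched to samples. The number of gene pairs in the same order was 10 of 15. It was also 10 under both other pseudocounts (0.1 and 5) and all 3 other scalings. This was fixed in advance, because these settings keep the order of genes within a library. With a library left out the number was 11 to 13, and this step cannot lower it. The number of values at least 2-fold from the other libraries was 1 (NANOG in replicate 1). It was 2 under median-of-ratios scaling, quantile normalization and centring each library on its median level, each adding NANOG in replicate 3. Rows at least 2-fold higher in replicate 3 were then 1.81, 1.61 and 1.72% of all, in the same order of settings. Rows at least 2-fold lower in replicate 1 were 4.97, 6.30 and 7.24%. The number was 2 with mitochondrially encoded and ribosomal protein genes removed, adding SALL4 in replicate 2 at 1.0004 against a bound of 1. There 14.6% of rows were at least 2-fold higher in replicate 2 and 9.18% at least 2-fold lower in replicate 1. It was 0 at a mean of at least 20 TPM, which leaves out NANOG and SOX2. With a library left out, genes were counted instead, and 0 to 2 differed at least 2-fold between the 2 libraries left. For these pairs of libraries no share of all rows is reported here. Network genes detected, 26, numbered 17 with detection at 5 TPM and 31 with 0.1 TPM, which the change of threshold brings about, and 26 to 27 without each library. Mean levels moved by more than 1 SD in 2 of 18 values under other scalings: POU5F1 was at 24.8 and SOX2 at 15.5 TPM with mitochondrially encoded and ribosomal protein genes removed, which raises all remaining genes. The shares of all rows past 2-fold moved by over 1.5 times in 28 of 54 values. Leaving out a library for the 2-fold count, and comparing the extreme library across scalings, were chosen after seeing the data. The table keeps no read depth, so the precision of low values such as NANOG in replicate 1 is unknown.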
